A study of Mus musculus with 12 samples.

Results

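The genes described here are 10 members of the DNAJ (HSP40) family of co-chaperones, chosen by gene symbol from the 52858 genes measured: Dnaja1, Dnaja2, Dnaja3, Dnaja4, Dnajb1, Dnajb2, Dnajb4, Dnajb5, Dnajb6 and Dnajb9. All 10 were in the files, and all 10 passed the filter on low values. RNA was sequenced from 12 isolated mouse hearts, 3 in each of 4 groups. The labels give the genotype as C57BL/6J or Slit2-Tg, and the letters of each label, read against the groups in the methods, give whether a heart was subjected to ischemia-reperfusion (IR). The mice were males of 3 to 5 months. C57-non-IR and Slit2-non-IR hearts were perfused continuously for 80 min in a Langendorff apparatus, which feeds the coronary vessels of a heart outside the body with buffer and no blood. C57-IR and Slit2-IR hearts had 20 min of stable perfusion, 20 min without flow and 40 min of reperfusion. Slit2-Tg mice are heterozygous for a full-length human Slit2 cDNA under a CMV promoter, which is not restricted to one cell type. The transgene was injected into oocytes of C57 × CBA F1 mice, and the line was kept on C57BL/6J. The non-IR hearts were perfused ex vivo too, so none of the groups gives the level in an unperfused heart.

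DNAJ proteins share the J domain, through which they dock on an HSP70 chaperone and speed up its hydrolysis of ATP, so that the HSP70 closes on an unfolded client. The DNAJA proteins also carry a zinc finger that contacts clients, which the DNAJB proteins lack. Some members are made at a steady rate for everyday folding. Others belong to the heat shock response, in which the transcription factor HSF1 binds inverted repeats of the letters GAA upstream of chaperone genes. In heart muscle, DNAJ and HSP70 proteins are known for holding contractile proteins in a folded state under mechanical and ischemic stress.

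HSF1 acts through the letters of the heat shock element, so these letters were looked for. RefSeq promoter windows (250 bases before to 50 bases after a transcript start, GRCm38.p6) were found for all 10 genes. GAANNTTC or TTCNNGAA, each of which reads the same on both strands, was present in the windows of 4 of the 10 genes (Dnaja1, Dnaja4, Dnajb4 and Dnajb6) and of 17.0% of 27025 genes with a window. A gene can have several windows. Counted by window, it was in 5 of the 19 windows of these genes (26.3%) and in 15.1% of all 32851 windows. A longer form with 1 further inverted GAA unit, which overlaps both short forms, was present for Dnajb6 and for 0.662% of all genes. The Dnaja4 and Dnajb4 matches lie at the second of 2 annotated starts, and the window of the first start held none. Annotated exons cover part of the 250 bases before the start used. They cover 218 bases for Dnaja1, 150 for Dnaja4, 0 for Dnajb4 and 250 for Dnajb6. The matches read as follows, 5′ to 3′ on the gene's own strand, with the matching letters in capitals.
Dnaja1, chr4:40722333-40722362, plus strand, 124 bases before the transcript start: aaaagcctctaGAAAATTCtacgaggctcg
Dnaja4, chr9:54699458-54699487, plus strand, 90 bases before the transcript start: ggaacctccgcGAACGTTCtgggcctatgt
Dnaja4, chr9:54699496-54699525, plus strand, 52 bases before the transcript start: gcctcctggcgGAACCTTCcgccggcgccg
Dnajb4, chr3:152193841-152193870, minus strand, 14 bases before the transcript start: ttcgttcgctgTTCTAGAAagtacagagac
Dnajb6, chr5:29735844-29735873, plus strand, 46 bases before the transcript start: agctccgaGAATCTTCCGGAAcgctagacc

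Dnajb1 held neither form in its window, which says only that these letters are not in those bases. The stretch before its transcript start is shown because Dnajb1 had the widest IR difference of the 10 genes. It lies at chr8:83607972-83608174 on the plus strand, beyond an exon of the antisense neighbour Tecr, with the reverse of a CCAAT box in capitals.
Dnajb1: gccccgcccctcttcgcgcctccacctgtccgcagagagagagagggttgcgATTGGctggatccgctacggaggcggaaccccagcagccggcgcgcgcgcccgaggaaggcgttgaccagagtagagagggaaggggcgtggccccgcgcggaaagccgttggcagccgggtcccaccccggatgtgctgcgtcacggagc
CCAAT or ATTGG was present for 5 of the 10 genes (Dnaja1, Dnaja3, Dnajb1, Dnajb5 and Dnajb9) and for 41.1% of all genes with a window. This search was added after the values were seen.

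The libraries held 16601154 to 24841291 reads on genes. Every DNAJ gene had at least 536 reads in every library. The 9 cardiomyocyte markers summed to 14900 to 22740 FPKM (fragments per kilobase of gene, scaled to the depth of the library), as the heart label says. The mouse gene Slit2 was at 0.81 FPKM in Slit2-IR replicate 2 and at 0.08 to 0.28 FPKM in all other libraries. It cannot check a transgene made of human cDNA. A pair of libraries stood apart in erythroid or atrial markers. In Slit2-non-IR replicate 2, 5 erythroid genes summed to 49.0 FPKM against 1.48 to 16.2 in the others. In Slit2-IR replicate 1, 12 atrial genes summed to 2050 FPKM against 136.7 to 361.5. Replicate 1 of every group stood apart from the other replicates in 2 further marker lists. The cardiomyocyte sum was 19290 to 22740 FPKM in the replicate 1 libraries and 14900 to 17810 in all others. The leukocyte sum was 115.2 to 152.0 FPKM in them and 163.1 to 249.3 in all others. The part of this split in the DNAJ values was not tested. In RNA from whole tissue, fewer cells of a type and less RNA per cell cannot be told apart. The hearts of a group were treated as independent samples, and the labels do not say what hearts with the same number share.

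In hearts perfused without ischemia the pool was led by Dnaja2, a cytosolic co-chaperone for everyday folding. In C57-non-IR hearts its level was 81.4 ± 2.2 FPKM (mean ± SD, n = 3). Dnaja3, which works in mitochondria, followed at 37.4 ± 1.68 FPKM. Dnajb2, a neuronal and muscle co-chaperone that passes clients to the proteasome, stood at 25.4 ± 2.01 FPKM. The libraries of Dnaja2, Dnaja3 and Dnajb2 did not overlap. Below them came Dnaja4 (21.7 ± 2.19 FPKM), Dnajb9 (18.0 ± 2.05 FPKM) and Dnajb5 (16.4 ± 0.83 FPKM), each overlapping its neighbour above. The lowest were Dnajb4 (13.2 ± 1.04 FPKM), Dnajb1 (11.1 ± 1.55 FPKM), Dnaja1 (9.97 ± 0.63 FPKM) and Dnajb6 (8.64 ± 0.86 FPKM), which overlapped one another in the same way and lay under Dnajb5. Slit2-non-IR hearts had the same order of means, with the same breaks after Dnaja2 and Dnaja3. There Dnajb5 lay above Dnajb4 but not above Dnajb1 and Dnaja1, whose replicate 2 stood at 18.8 and 20.02 FPKM. FPKM divides by the length of all exons of a gene, which is 8629 bases for Dnaja1 and 8765 for Dnajb4 against 2975 for Dnaja2, so the order depends on how many of those exons the heart uses.

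After IR the order was different. Dnajb1 had moved from the eighth to the top place in both genotypes by its mean, at 120.5 ± 37.9 FPKM in C57-IR and 193.2 ± 97.2 FPKM in Slit2-IR hearts. Its libraries overlapped those of Dnaja2 in C57-IR hearts and lay above them in Slit2-IR hearts. The 10 genes together summed to 243.1 ± 7.99 FPKM in C57-non-IR and 429.5 ± 68.2 FPKM in C57-IR hearts. The sum was 257.9 ± 14.9 FPKM in Slit2-non-IR and 515.8 ± 135.2 FPKM in Slit2-IR hearts. In both genotypes the 3 IR sums lay above the 3 non-IR sums. Dnajb1 made up 4.19 to 5.12% of the sum in C57-non-IR hearts and 23.4 to 32.0% in C57-IR hearts. Its share was 3.995 to 7.15% in Slit2-non-IR and 23.9 to 44.2% in Slit2-IR hearts. The share of Dnaja2 was lower with IR though its level was not, going from 33.0 to 34.0% in C57-non-IR hearts to 19.2 to 24.97% in C57-IR hearts.

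**Figure D1:**
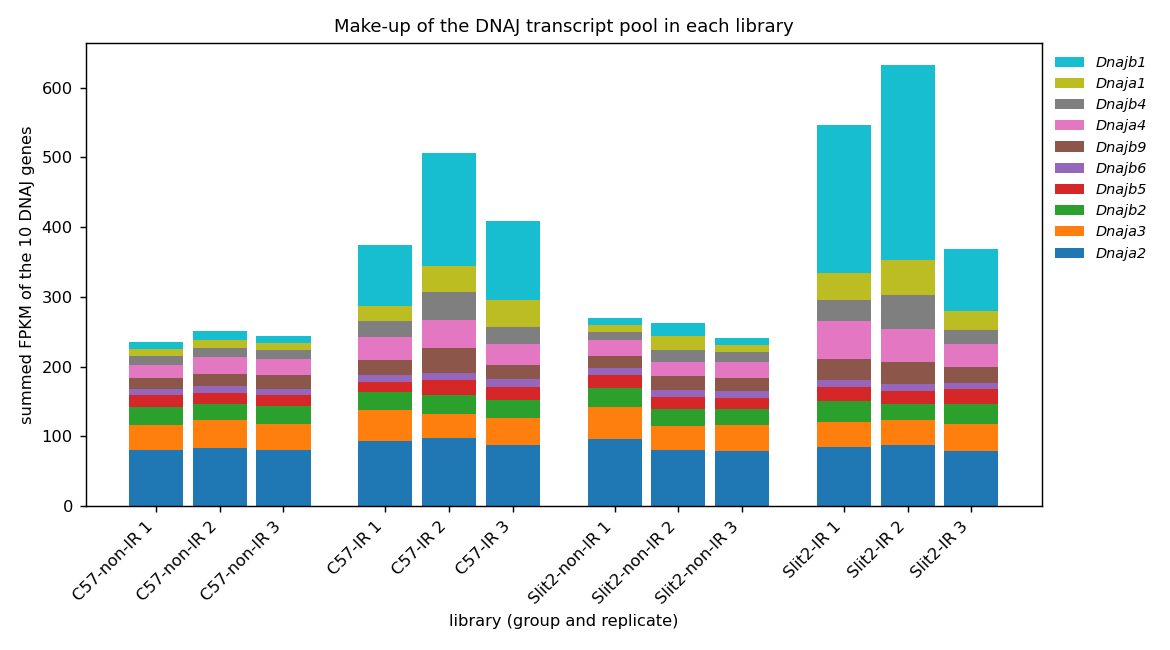
Stacked bars give the summed FPKM of the 10 DNAJ genes (vertical axis) in each of the 12 libraries (horizontal axis), with 1 colour per gene. The Dnajb1 part, at the top of each bar, is 3.995 to 7.15% of the sum in non-IR hearts and 23.4 to 44.2% in IR hearts, while the Dnaja2 part at the foot keeps nearly the same height.

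Each gene was then compared between groups on the log2(FPKM + 1) scale, on which the change of low genes is understated, in a fit of all 12 libraries. A gene is said to have risen or fallen where its p-value, adjusted over the 15240 genes tested, was under 0.05. Averaged over both genotypes, 4 of the 10 DNAJ genes rose after IR (Dnajb1, Dnaja1, Dnaja4 and Dnajb4) and none fell. Of all genes tested, 2.34% rose in that comparison and 1.15% fell. The 10 genes were chosen with earlier results of these data known, so setting their counts beside all genes is a description only. Within C57BL/6J hearts Dnajb1 rose, where 0.407% of all genes did. Within Slit2-Tg hearts Dnajb1 and Dnaja4 rose, where 0.446% of all genes did. The median IR difference of the 10 genes was 0.37 in C57BL/6J and 0.35 in Slit2-Tg hearts, beside 0.0015 and 0.0053 for all genes tested. Every C57-IR library lay above every C57-non-IR library for 6 of the 10 genes, as for 6.75% of all genes, and every Slit2-IR library above every Slit2-non-IR library for 5, as for 8.65%. For 5 of the 10 (Dnajb1, Dnaja1, Dnaja4, Dnajb4 and Dnajb9) this held in both genotypes, as it did for 2.93% of all genes.

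**Figure D2:**
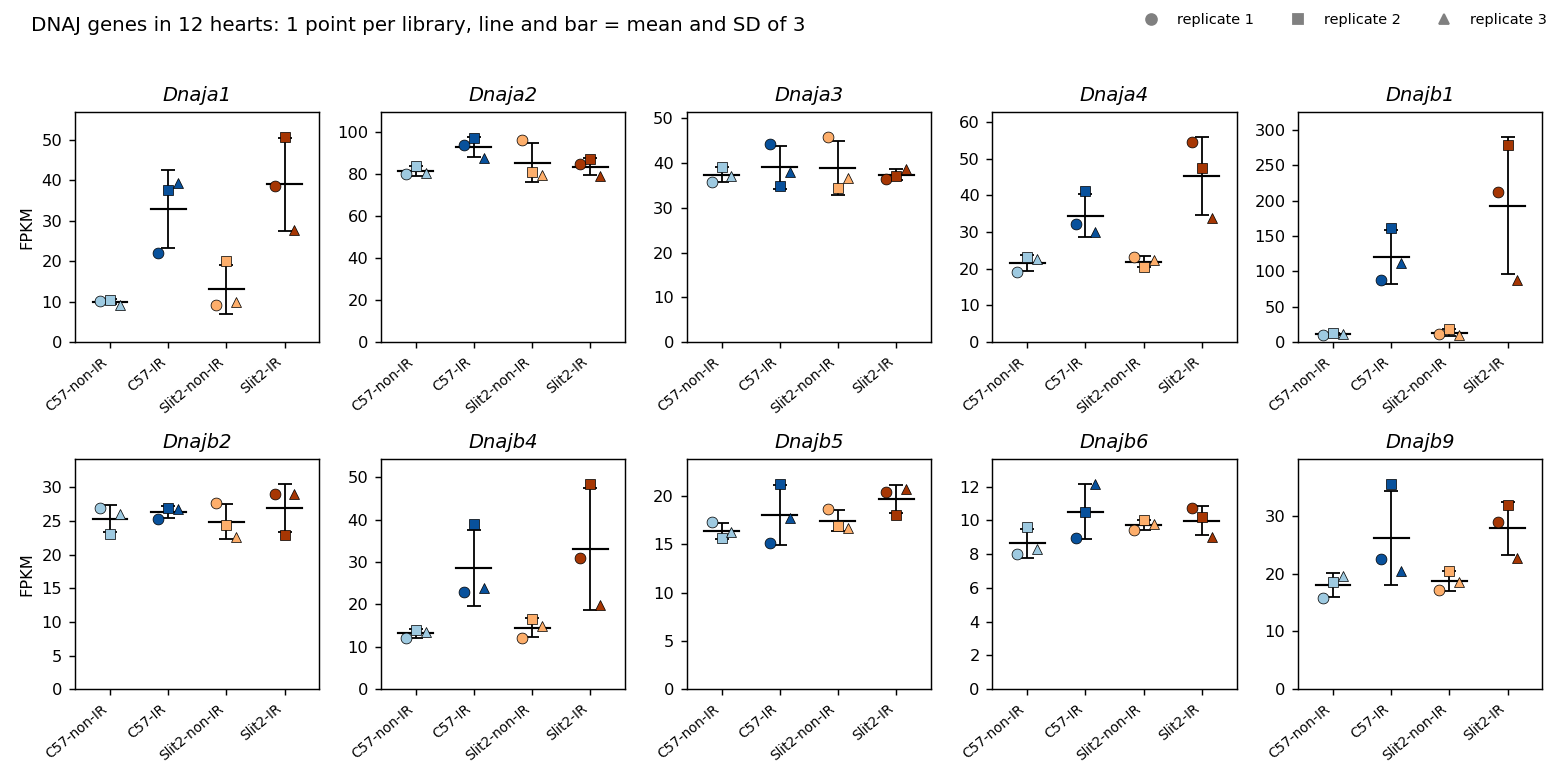
Each panel gives the FPKM of 1 DNAJ gene (vertical axis, from 0) in the 4 groups (horizontal axis), with 1 point per library shaped by replicate number and with the mean and SD of 3 libraries. In Dnajb1, Dnaja1, Dnaja4, Dnajb4 and Dnajb9 all IR points sit above all non-IR points of the same genotype, and in the other panels the groups overlap in one or both genotypes.

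Dnajb1 (ENSMUSG00000005483, chr8:83608193-83612653, plus strand) encodes the major heat-inducible HSP40, which works with HSP70 in refolding and in pulling apart aggregates. Its level was 9.82, 12.8 and 10.8 FPKM in the C57-non-IR hearts and 87.6, 161.9 and 112.0 FPKM in the C57-IR hearts. It was 10.8, 18.8 and 10.5 FPKM in the Slit2-non-IR hearts and 212.1, 279.5 and 87.9 FPKM in the Slit2-IR hearts. The lowest IR heart lay far above the highest non-IR heart, and the IR hearts differed widely among themselves. The ratio of means was 10.8-fold in C57BL/6J and 14.5-fold in Slit2-Tg hearts. On the log2(FPKM + 1) scale the difference was 3.29 ± 0.38 (SE, adjusted p = 0.00934) in C57BL/6J hearts. In Slit2-Tg hearts it was 3.65 ± 0.38 (adjusted p = 0.00410), and averaged over genotypes 3.47 ± 0.27 (adjusted p = 0.000201). The call in C57BL/6J hearts was lost when any 1 of C57-non-IR replicates 1, 2 and 3 or C57-IR replicates 2 and 3 was left out, with adjusted p of 0.0525 to 0.0696 and differences of 3.05 to 3.38. Without Slit2-IR replicate 1, the library with atrial genes, the difference in Slit2-Tg hearts was 3.51 (adjusted p = 0.0312).

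Dnaja1 (ENSMUSG00000028410, chr4:40722150-40737149, plus strand) encodes a cytosolic co-chaperone of HSP70 that is also heat-inducible. Its level was 10.2, 10.5 and 9.27 FPKM in C57-non-IR hearts against 21.9, 37.6 and 39.3 FPKM in C57-IR hearts. In Slit2-Tg hearts it was 9.12, 20.02 and 9.89 FPKM without IR and 38.6, 50.7 and 27.6 FPKM with IR. Slit2-non-IR replicate 2 stood above the other non-IR hearts and just under the lowest IR heart of either genotype. The ratio of means was 3.30-fold in C57BL/6J and 3.00-fold in Slit2-Tg hearts. Averaged over genotypes the log2 difference was 1.57 ± 0.21 (adjusted p = 0.00346). Within a genotype Dnaja1 missed the threshold, with 1.59 ± 0.30 (adjusted p = 0.0542) in C57BL/6J and 1.55 ± 0.30 (adjusted p = 0.0539) in Slit2-Tg hearts. Blocked by replicate number, adjusted p in Slit2-Tg hearts was 0.0205 in the fit of all libraries and 0.0552 in a fit of the Slit2-Tg hearts alone.

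Slit2-non-IR replicate 2, the library with erythroid genes, was the one in which Dnaja1 and Dnajb1 were highest among non-IR hearts. The sum of the 5 erythroid genes ranged from 8.35 to 16.2 FPKM in C57-non-IR, 1.48 to 6.79 in C57-IR, 4.53 to 49.0 in Slit2-non-IR and 1.85 to 12.9 in Slit2-IR hearts, and none of the 5 was at 0 in every library. Without that library the Slit2-Tg difference was 1.89 for Dnaja1 (adjusted p = 0.0467) and 3.91 for Dnajb1 (adjusted p = 0.0102), wider than with it. The HSP70 genes Hspa1a and Hspa1b were also at their highest non-IR values there, 10.4 and 11.9 FPKM. The part of blood cells in these values was not tested.

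Reads of Dnaja1 are less certain because of a copy and a neighbour. The processed pseudogene Gm15542 (chr7:140890887-140892080) matches the Dnaja1 transcript at 1187 of 1194 aligned bases, an identity of 99.4%. Gm15542 stood at 2.21 to 4.79 FPKM in non-IR and 5.04 to 12.4 FPKM in IR hearts, and its profile over the 12 libraries was the one nearest to that of Dnaja1 among all genes tested. It held 45 to 356 reads a library, against 1384 to 10524 for Dnaja1, and how reads were assigned between the pair was not tested. Dnaja1 also shares 608 exon bases with the antisense gene Smu1.

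Dnaja4 (ENSMUSG00000032285, chr9:54698873-54716315, plus strand) encodes a cytosolic co-chaperone abundant in heart and skeletal muscle. Its level was 19.2, 23.3 and 22.5 FPKM in C57-non-IR and 32.3, 41.1 and 30.1 FPKM in C57-IR hearts. It was 23.2, 20.4 and 22.4 FPKM in Slit2-non-IR and 54.7, 47.5 and 33.7 FPKM in Slit2-IR hearts. The non-IR hearts lay close together, and 2 of the 3 Slit2-IR hearts were above every C57-IR heart. The ratio of means was 1.59-fold in C57BL/6J and 2.06-fold in Slit2-Tg hearts. The log2 difference was 0.64 ± 0.17 (adjusted p = 0.168) in C57BL/6J, 0.99 ± 0.17 (adjusted p = 0.0403) in Slit2-Tg and 0.81 ± 0.12 (adjusted p = 0.00459) over both. The call in Slit2-Tg hearts was lost when any 1 of 9 libraries was left out, namely all C57-non-IR and Slit2-non-IR replicates, C57-IR replicate 3 and Slit2-IR replicates 1 and 2 (adjusted p of 0.0561 to 0.149). The difference was 0.84 (adjusted p = 0.149) without Slit2-IR replicate 1, the library with atrial genes and the highest Dnaja4. The 12 atrial genes, none of them at 0 in every library, summed to 136.7 to 211.7 FPKM in C57-non-IR, 204.2 to 361.5 in C57-IR, 167.8 to 235.0 in Slit2-non-IR and 196.2 to 2050 in Slit2-IR hearts. Blocked by replicate number in a fit of the Slit2-Tg hearts alone, adjusted p was 0.0981, and in the fit of all libraries 0.0257. Dnaja4 shares 1581 of its 3589 exon bases with the antisense gene Wdr61, and whether reads were counted by strand is not given in the sources used here.

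Dnajb4 (ENSMUSG00000028035, chr3:152178511-152210302, minus strand) encodes a close relative of the Dnajb1 product that is abundant in heart and muscle. Its level was 11.99, 13.96 and 13.52 FPKM in C57-non-IR and 22.9, 39.0 and 23.95 FPKM in C57-IR hearts. It was 12.2, 16.5 and 14.8 FPKM in Slit2-non-IR and 31.0, 48.4 and 19.8 FPKM in Slit2-IR hearts. Replicate 2 was the highest heart of every group. The ratio of means was 2.18-fold in C57BL/6J and 2.28-fold in Slit2-Tg hearts. The difference over both genotypes was 1.04 ± 0.20 (adjusted p = 0.0153). Within genotypes it was 1.03 ± 0.28 (adjusted p = 0.179) and 1.06 ± 0.28 (adjusted p = 0.129), neither past the threshold. Blocked by replicate number, adjusted p in Slit2-Tg hearts was 0.046 in the fit of all libraries and 0.156 in a fit of the Slit2-Tg hearts alone. Without Slit2-IR replicate 3 it was 0.0431. Dnajb4 shares no exon bases with another gene.

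Dnajb9 (ENSMUSG00000014905, chr12:44205559-44210326, minus strand) encodes ERdj4, a co-chaperone of the endoplasmic reticulum that binds misfolded proteins and holds the stress sensor IRE1 in check with the HSP70 of that compartment, BiP. Its level was 15.7, 18.6 and 19.7 FPKM in C57-non-IR and 22.5, 35.6 and 20.6 FPKM in C57-IR hearts. It was 17.1, 20.4 and 18.7 FPKM in Slit2-non-IR and 29.0, 31.9 and 22.7 FPKM in Slit2-IR hearts. The groups did not overlap, though C57-IR replicate 3 lay within 1 FPKM of the highest C57-non-IR heart. The difference over both genotypes was 0.51 ± 0.13, which missed the threshold (adjusted p = 0.0678, unadjusted p = 0.00295). It was 0.48 ± 0.19 in C57BL/6J and 0.54 ± 0.19 in Slit2-Tg hearts (adjusted p = 0.449 and 0.284). Without C57-IR replicate 2 the C57BL/6J difference was 0.25.

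The other 5 genes did not pass the threshold in any comparison. For Dnaja2 the level was 79.7, 83.8 and 80.5 FPKM in C57-non-IR, 93.5, 97.1 and 87.6 in C57-IR, 95.9, 80.7 and 79.3 in Slit2-non-IR and 84.7, 86.8 and 78.7 in Slit2-IR hearts. The C57-IR hearts lay above the C57-non-IR hearts, with a difference of 0.19 (95% interval -0.02 to 0.39), while the Slit2-Tg hearts overlapped. Over both genotypes the difference of Dnaja2 was 0.08 (-0.07 to 0.22). Dnaja3 ranged from 34.4 to 45.9 FPKM over all 12 hearts, with an IR difference over both genotypes of 0.0059 (-0.18 to 0.19). Dnajb2 ranged from 22.6 to 29.1 FPKM, with a difference of 0.08 (-0.09 to 0.26). Dnajb5, a relative of Dnajb1 and Dnajb4 that binds class II histone deacetylases in heart muscle, ranged from 15.1 to 21.2 FPKM, with a difference of 0.14 (-0.04 to 0.32). Dnajb6, which suppresses aggregation and whose human counterpart is mutated in a limb-girdle muscular dystrophy, ranged from 7.98 to 12.2 FPKM, with a difference of 0.14 (-0.04 to 0.32). In C57BL/6J hearts alone Dnajb6 differed by 0.25 (0.0019 to 0.50, unadjusted p = 0.0486, adjusted p = 0.551). For the mean over both genotypes, the intervals of Dnaja2, Dnaja3, Dnajb2, Dnajb5 and Dnajb6 all ended at or under 0.32, and those of Dnajb1, Dnaja1, Dnaja4 and Dnajb4 all began at 0.55 or above. The interval of Dnajb9 ran from 0.21 to 0.81, across that gap. The genes are grouped here by their calls in the same fit, so the gap is not separate support for the calls. The short heat shock element letters were found for 3 of the 4 genes that rose over both genotypes (Dnaja1, Dnaja4 and Dnajb4, but not Dnajb1). They were found for 1 of the other 6 (Dnajb6) and for 17.0% of all genes with a window. Whether the letters bear on the IR differences was not tested.

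**Figure D3:**
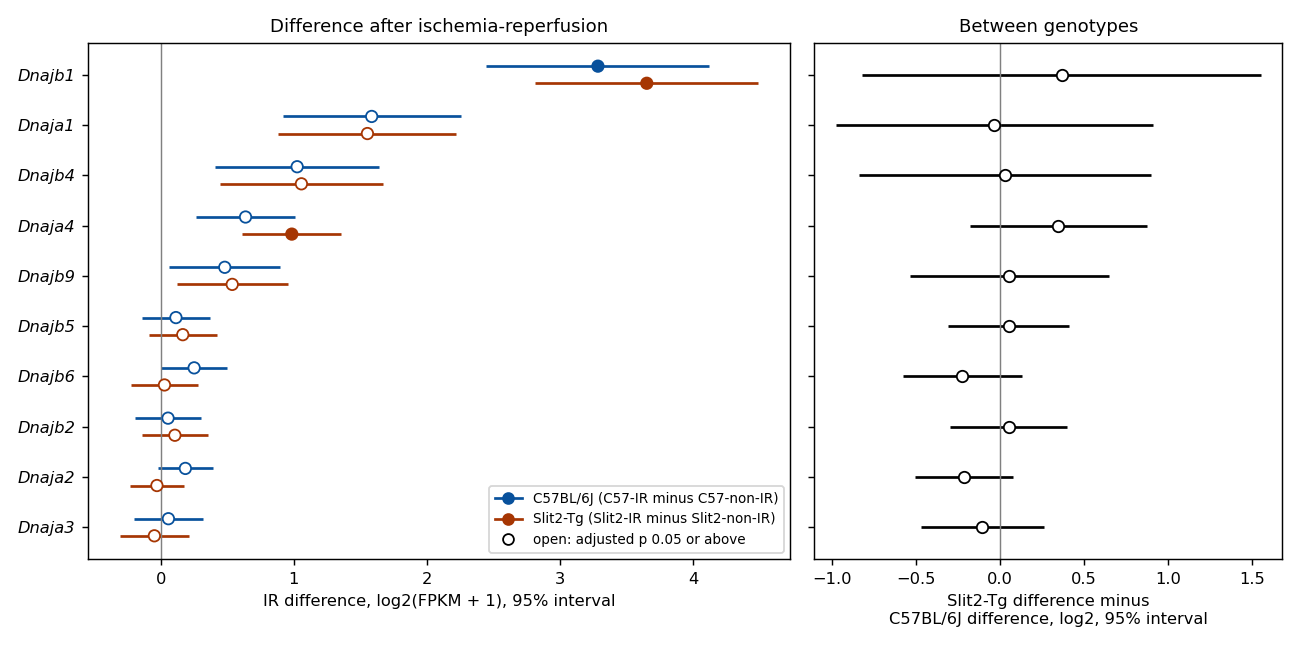
The left panel gives the IR difference in log2(FPKM + 1) with its 95% interval for the 10 DNAJ genes (vertical axis) in C57BL/6J (blue) and Slit2-Tg hearts (brown), filled where adjusted p is under 0.05. The right panel gives the Slit2-Tg minus the C57BL/6J difference, with every interval crossing 0. Dnajb1 lies at 3.29 and 3.65, and the 5 genes at the foot lie near 0.

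Whether the IR difference depended on genotype was tested as an interaction. None of the 10 genes passed, and 0 of all genes did in either direction (smallest adjusted p 1). None of the 10 had an unadjusted p under 0.05, as 1.08% of all genes did with a larger difference in Slit2-Tg hearts and 0.787% with a smaller one. limma-voom on the recovered reads also called none of the 10. The Slit2-Tg minus C57BL/6J difference was 0.37 for Dnajb1 (95% interval -0.82 to 1.55), 0.35 for Dnaja4 (-0.18 to 0.88) and -0.21 for Dnaja2 (-0.50 to 0.07). It was -0.03 for Dnaja1 (-0.98 to 0.91), 0.03 for Dnajb4 (-0.84 to 0.90) and 0.06 for Dnajb9 (-0.54 to 0.65). Leaving out 1 library moved the value of Dnajb1 from 0.025 to 0.85. The intervals of Dnajb1, Dnaja1 and Dnajb4 are wide enough to hold a difference between genotypes as large as the whole IR difference of Dnaja4. The interval of Dnaja4 itself, -0.18 to 0.88, held 0. Passing in Slit2-Tg but not in C57BL/6J hearts therefore does not show that Dnaja4 responded differently in them.

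The genotypes were also compared without IR and after IR. None of the 10 genes passed in either comparison with limma, and none did with limma-voom. Without IR, 0.0394% of all genes passed as higher in Slit2-Tg hearts and 0 as lower. After IR, 0.0328% passed as higher and 0.0131% as lower. None of the 10 had an unadjusted p under 0.05, as 1.42% (higher) and 1.77% (lower) of all genes did without IR and 1.78% and 1.38% did after it. Dnajb1 was 1.60-fold higher by its mean in Slit2-IR hearts than with IR in C57BL/6J, a log2 difference of 0.57 ± 0.38 (95% interval -0.27 to 1.41), and the libraries overlapped because Slit2-IR replicate 3, at 87.9 FPKM, lay beside the lowest C57-IR heart at 87.6 FPKM. Leaving out 1 library moved this difference from 0.23 (without Slit2-IR replicate 2) to 1.05 (without Slit2-IR replicate 3). Dnaja4 had the smallest unadjusted p after IR, with a difference of 0.37 ± 0.17 (unadjusted p = 0.0523). Dnaja2 was the only member whose groups did not overlap after IR, lower in Slit2-IR hearts by -0.15 (-0.36 to 0.05), as 3.44% of all genes were lower in the same way. The C57-IR and Slit2-IR hearts enter both this comparison and those of IR, so the results are not independent.

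Within a group, hearts did not rank evenly over the 10 genes. Replicate 2 was the highest heart for 7 genes in C57-non-IR, 7 in C57-IR, 5 in Slit2-non-IR (as was replicate 1) and 5 in Slit2-IR hearts. The lowest heart was most often replicate 1 in C57-non-IR (7 genes) and C57-IR (6 genes) and replicate 3 in Slit2-IR (7 genes). Dnajb1 per 100 FPKM of Hspa8, the constitutive HSP70 with which it works, was 3.12 to 5.22 in C57-non-IR, 21.4 to 30.9 in C57-IR, 4.04 to 6.39 in Slit2-non-IR and 19.3 to 52.4 in Slit2-IR hearts. So the ratio of the Dnajb1 transcript to that of Hspa8 was higher in all 6 IR hearts than in all 6 non-IR hearts. Protein was not measured here.

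The DNAJ genes were set beside their partners in lists drawn up for this purpose, with earlier results of these data known. Of 39 other genes with a J domain, 32 were tested and none rose or fell over both genotypes. By limma 2 were higher and 2 lower at an unadjusted p of less than 0.05, as 2422 of all 15240 genes were in either direction. Their IR differences ran from -0.20 to 0.28 with a median of 0.0048, beside 0.0036 for all genes tested. The pair with the smallest unadjusted p were Dnajb11, a BiP co-chaperone of the endoplasmic reticulum (0.28 ± 0.09, adjusted p = 0.136), and Dnajc27 (0.20 ± 0.08, adjusted p = 0.201).

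Of 15 genes for HSP70 and HSP110 chaperones, all tested, 6 rose and 1 fell over both genotypes. The stress-inducible pair Hspa1a and Hspa1b rose by 5.94 ± 0.23 and 6.91 ± 0.27 (adjusted p of 2.19e-07 for both). Hspa1a went from 3.90 to 10.4 FPKM in non-IR hearts to 293.4 to 743.7 FPKM in IR hearts, and Hspa1b from 3.12 to 11.9 to 379.9 to 891.0 FPKM. These genes are near-identical, and reads may be split between them. Hsph1, the inducible HSP110 that resets HSP70 by exchanging its nucleotide, rose by 1.73 ± 0.15. Hspa8 (0.82 ± 0.12), Hspa2 (0.95 ± 0.16) and Hspa5, which encodes BiP (0.75 ± 0.10), also rose. The gene that fell was Hspa12b, an endothelial relative (-0.47 ± 0.11, adjusted p = 0.0489), named here after its values were seen. That call was lost (0 genes lower) when any 1 library other than C57-IR replicate 3 was left out.

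Of 16 nucleotide exchange and other co-factors of HSP70, 1 rose: Bag3, which links HSP70 to small heat shock proteins in muscle (0.87 ± 0.16, adjusted p = 0.0123). Of 4 genes for heat shock factors and their regulators, none rose or fell by limma. None of the 4 reached an unadjusted p of less than 0.05, as 2422 of all 15240 genes did. The transcript of Hsf1 differed by 0.13 ± 0.10 and that of Hsbp1, a negative regulator, by 0.05 ± 0.05. Of 18 partners of Dnajb9 in the stress response of the endoplasmic reticulum, 4 rose (Hspa5, Manf, Hsp90b1 and Calr) and none fell, with a median of 0.41. The count was 8 without C57-IR replicate 1, and 2 without any 1 of C57-non-IR replicates 1 and 2, C57-IR replicates 2 and 3, Slit2-non-IR replicates 1 and 2 and Slit2-IR replicates 1 and 3. Manf, a secreted ER stress protein, rose by 0.74 ± 0.13 (adjusted p = 0.0102). Dnajb9, at 0.51, lay near the median of its partners.

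**Figure D4:**
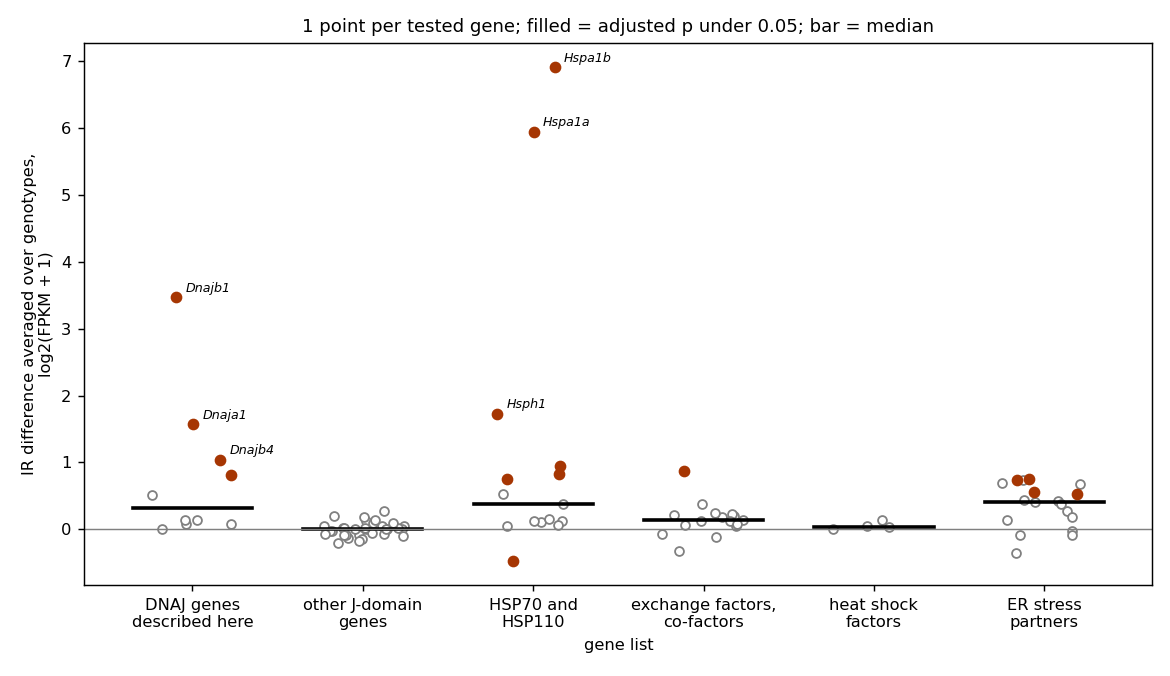
Each point is the IR difference over both genotypes in log2(FPKM + 1) (vertical axis) of 1 tested gene in the list named on the horizontal axis, filled where adjusted p is under 0.05, with a bar at the median. The 32 other J-domain genes lie between -0.20 and 0.28, while Dnajb1 stands at 3.47 and Hspa1b at 6.91.

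**Figure D5:**
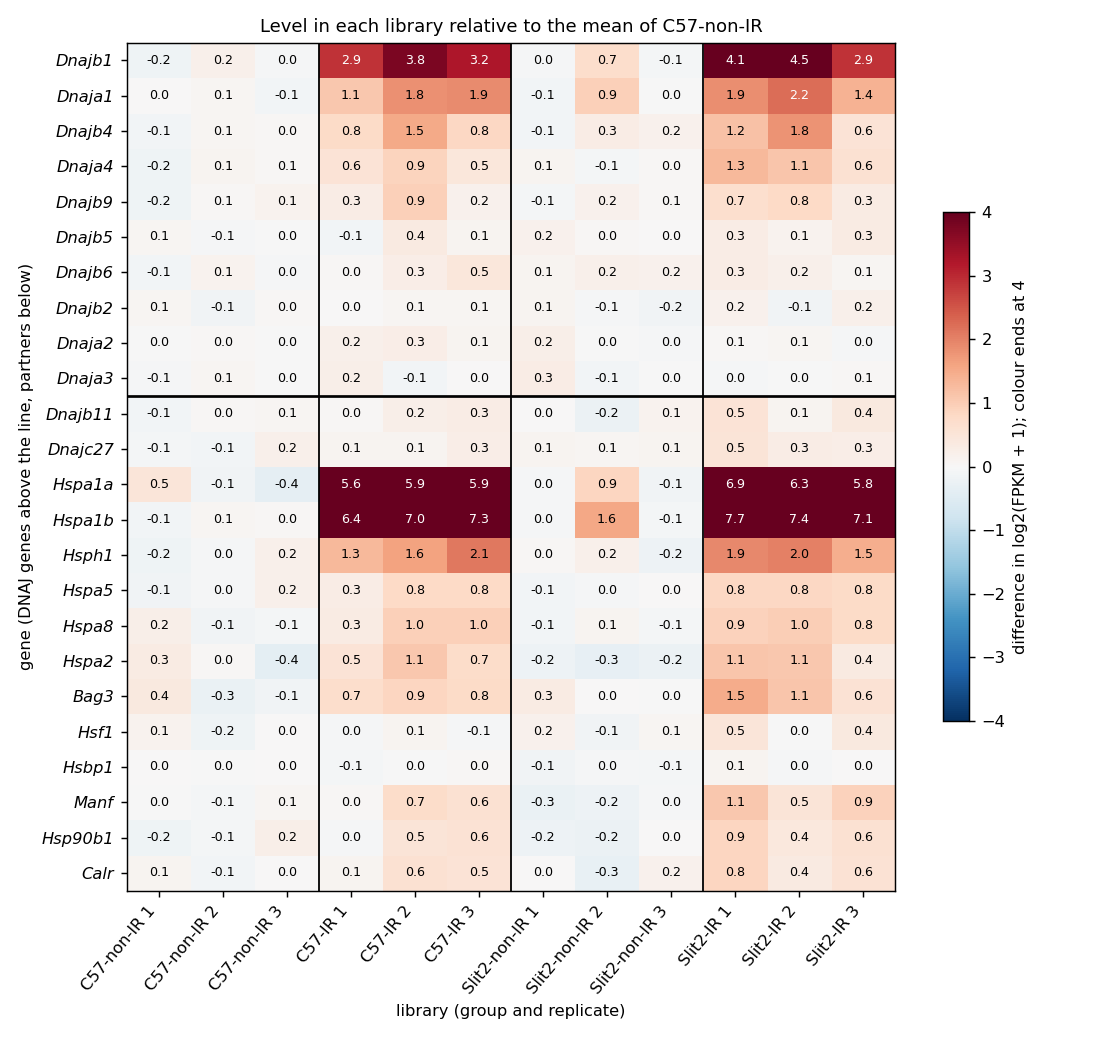
Colour and numbers give log2(FPKM + 1) of each gene (rows) in each of the 12 libraries (columns) minus the mean of the 3 C57-non-IR hearts. Dnajb1, Dnaja1, Hspa1a and Hspa1b are higher in all 6 IR columns, and these 4 are also higher in Slit2-non-IR replicate 2, where Dnaja1, at 20.02 FPKM, comes near the lowest IR heart at 21.9 FPKM.

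The genes whose profiles over the 12 libraries were nearest to those of the 4 members that rose were found by the root mean square difference of centred log2(FPKM + 1), which is 0 for identical profiles. Nearest to Dnajb1 was Nr4a3, an immediate early nuclear receptor, at 0.36, followed by Arc, Il6, Atf3 and Rnd1 at 0.55 to 0.59. The means of Nr4a3 were 27.6-fold higher with IR in C57BL/6J and 37.5-fold higher in Slit2-Tg hearts. After Gm15542 at 0.20, Dnaja1 was nearest to Tnfaip3, Nfil3, Gfpt2 and Hsph1, at 0.27 to 0.28. Dnaja4 was nearest to Dusp4, a phosphatase of MAP kinases, at 0.11, and then to Tsc22d2, Zswim4, Zbtb10 and Cfap43 at 0.15 to 0.18. Dnajb4 was nearest to Rnd3 at 0.14, then to Jun, Trib1, Arl5b and Mafk at 0.15 to 0.18. These values describe likeness over 12 libraries that share the IR split.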

How the data were processed

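RNA was measured in 12 mouse hearts in 4 groups of 3. Libraries of total RNA (NEBNext Ultra RNA kit) were read paired-end on an Illumina HiSeq. The submitters' processing notes name HISAT2 and mm10. The counting tool, annotation release and use of strand are not given in the sources used here. The authors deposited FPKM per gene and library, with gene length and coordinates. Multiplied by gene length, 100% of values were whole multiples (within 0.05) of what 1 read was worth in that library. That worth followed median-of-ratios size factors, so reads were recovered to give depth. There were 0 unused per-library columns.

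The moderated test of limma (variance trend) was run on log2(FPKM + 1) of 12 libraries with 1 mean per group. Genes tested had at least 15 reads in total and, in 3 or more libraries, as many as 10 reads of the median library. Benjamini-Hochberg adjustment ran over 15240 genes. With 3 hearts a group, intervals are wide. The fit was tested on simulated data. Alternatives were a pseudocount of 0.1, other filters, fitting only the groups compared, a replicate block, TMM, limma-voom, robust variance and leaving out each library. TMM shifted the log2 values of single libraries by a median over genes of -0.0208 to 0.0169.

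Same-numbered libraries deviated together across genes in all 3 pairs for Slit2-IR against Slit2-non-IR (0.143 to 0.294) and against C57-IR hearts (0.154 to 0.362), and in 2 of 3 pairs, at over 0.1, in the other 2 comparisons. No label says what a number shares, so the pairing comes from the data alone.

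The DNAJ genes and partner lists were chosen with earlier results of these data known. All 10 DNAJ genes are named, with up to 6 genes per partner list called in any comparison (or the 2 with the smallest p) and, for each DNAJ gene called, the 5 nearest profiles. Marker genes of fibroblasts, endothelium, leukocytes, adipose and skeletal muscle summed to 171.2 to 323.1, 204.2 to 359.9, 115.2 to 249.3, 97.1 to 223.2 and 475.0 to 854.8 FPKM, with Ly6g and Myh4 at 0 in every library. Promoter sequences are from RefSeq, and exon overlaps from GENCODE, both GRCm38. Software was Python 3.11.15 (pandas 2.3.3, matplotlib 3.10.9) and R 4.3.3 with limma 3.58.1.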

Additional observations from a re-analysis of the deposited data

How the results depend on the processing

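The rise of Dnajb1, Dnaja1, Dnaja4 and Dnajb4 over both genotypes passed the threshold under every alternative run, with adjusted p of at most 0.049 (Dnajb4 with no filter). Dnajb9 passed there blocked by replicate number (0.0284) and without C57-IR replicate 3 (0.0453) or Slit2-IR replicate 3 (0.0478). Calls of Dnajb1, Dnaja4 and Dnajb4 within a genotype that depended on single libraries are given beside them. Dnaja4 in Slit2-Tg hearts was also lost with no filter (0.112), with only the groups compared (0.0834) and with those and a block (0.0981). Dnaja1 within a genotype passed with a pseudocount of 0.1 (0.0476 in C57BL/6J, 0.0471 in Slit2-Tg) and with at least 10 reads in every library (0.0447 and 0.0403). It also passed without C57-IR replicate 1 (0.0156 and 0.0241) and without Slit2-non-IR replicate 2 (0.0427 and 0.0467), and in Slit2-Tg hearts with limma-voom (0.0353) and without C57-IR replicate 2 (0.0461) or Slit2-IR replicate 3 (0.0457). The cause was not tested.

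For IR in C57BL/6J hearts, where 70 genes and 1 DNAJ gene passed, the number of genes was 7 with no filter, 9 with only the groups compared, 174 with the replicate block and 30 with the block in those groups, and 32 with limma-voom. DNAJ genes numbered 2 with a pseudocount of 0.1, with at least 10 reads in every library and with the block. Leaving out 1 library gave 3 (without C57-non-IR replicate 2) to 254 genes (without C57-IR replicate 1) and 0 to 2 DNAJ genes. For IR in Slit2-Tg hearts (80 genes, 2 DNAJ genes) the numbers were 19 and 1 with no filter, 202 and 4 with the block, 45 and 1 with the block in the groups compared and 121 genes with limma-voom, while DNAJ genes numbered 1 with only the groups compared. Leaving out 1 library gave 5 (without Slit2-IR replicate 1) to 179 genes (without C57-IR replicate 1) and 1 to 4 DNAJ genes.

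For Slit2-non-IR against C57-non-IR hearts (6 genes) the number was 10 with a pseudocount of 0.1, 11 with no filter, 3 with at least 10 reads, 2 with the block, 1 with the block in those groups and 1 to 14 without 1 library. For Slit2-IR against C57-IR hearts (7 genes) it was 3 with at least 10 reads, 4 with only the groups compared, 1 with the block in those groups and 4 to 12 without 1 library. The interaction had 4 genes with no filter and 0 to 1 without 1 library. The mean over genotypes (532 genes) had 299 with no filter and 329 to 714 without 1 library, with 4 to 5 DNAJ genes. The block changed no other call among the DNAJ genes than those given here and beside the results, with Dnaja1 in C57BL/6J hearts at adjusted p of 0.0234 in the fit of all libraries and 0.0649 in a fit of those groups.

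Without 1 library, the HSP70 and HSP110 genes that fell numbered 0 to 1 and the ER stress partners that rose 2 to 8. Of the 60 differences of DNAJ genes, 26 changed sign when 1 library was left out, and 0 of those were past the threshold. Among those printed, the interaction ranged from -0.29 to 0.30 for Dnaja1, -0.28 to 0.34 for Dnajb4 and -0.092 to 0.29 for Dnajb9, and the mean IR difference of Dnaja3 from -0.0402 to 0.0659.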
